A study of Mus musculus with 14 samples.

Results

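The genes described here encode fructose-1,6-bisphosphatase 1, Fbp1, and 5 enzymes that act in or beside the same pathway: Fbp2, G6pc2, Pcx, Pck1 and Pck2. They are 6 of the 18820 genes measured in pancreatic islets of 14 mice. Each was found as the single probe set whose annotation gave its symbol and no other: 10410007 for Fbp1, 10409999 for Fbp2, 10472531 for G6pc2, 10460400 for Pcx, 10479047 for Pck1 and 10415248 for Pck2. Fbp1 was chosen by its measured difference between the genotypes on these arrays, so its genotype differences are given as descriptions with no test. The other genes were added as the other enzymes particular to gluconeogenesis.

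Islets came from wild-type C57BL/6 mice (WT) and from Tlr2/Tlr4 double knockout mice on a C57BL/6 background (DKO), which lack the Toll-like receptors 2 and 4. All animals were fed a diet with 60% fat from 6 weeks of age, and islets were taken after 5 weeks or 7 months of it, so no group on another diet enters a comparison. There were 4 arrays of WT and 2 of DKO at 5 weeks, and 4 of each genotype at 7 months. The labels give no substrain and do not say whether WT and DKO mice were littermates, or which cells of the islet an RNA came from.

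Gluconeogenesis runs glycolysis backwards, and it needs separate enzymes at the steps that glycolysis cannot reverse. Pyruvate carboxylase (Pcx) and phosphoenolpyruvate carboxykinase (Pck1 in the cytosol, Pck2 in mitochondria) turn pyruvate into phosphoenolpyruvate. Fructose-1,6-bisphosphatase (Fbp1, the liver and kidney form, and Fbp2, the muscle form) removes a phosphate against the direction of phosphofructokinase. Glucose-6-phosphatase ends the route, and its form G6pc2 is made in islet cells. Islets do not export glucose as the liver does. Pcx there refills the citric acid cycle, and G6pc2 turns glucose-6-phosphate back into glucose.

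Sequences upstream of the annotated start are shown for Fbp1 and Fbp2, whose signals differed between genotypes, and for Pck1, a classical gene of the pathway, as a reference. They are RefSeq sequences of the build GRCm38.p6, 250 bases each, written 5′ to 3′ on the strand of the gene. The deposited table names no build. Fbp1 lies at chr13:62888283-62888532 and Fbp2 at chr13:62858401-62858650, both on the minus strand, and Pck1 at chr2:173152823-173153072 on the plus strand. All 6 genes had an entry. Capitals mark matches to 5 motifs searched on both strands, and no match overlaps another here. TGACG is the core of a cAMP response element. The letters CACGTG form an E-box, and TGTTTAC is bound by FoxO factors. The search also covered the TATA box, spelled TATAAA, and the box spelled CCAAT.
Fbp1: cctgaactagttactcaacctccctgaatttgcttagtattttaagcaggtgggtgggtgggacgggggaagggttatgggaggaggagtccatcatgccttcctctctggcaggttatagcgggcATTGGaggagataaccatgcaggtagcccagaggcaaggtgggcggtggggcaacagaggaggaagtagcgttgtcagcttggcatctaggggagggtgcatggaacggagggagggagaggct
Fbp2: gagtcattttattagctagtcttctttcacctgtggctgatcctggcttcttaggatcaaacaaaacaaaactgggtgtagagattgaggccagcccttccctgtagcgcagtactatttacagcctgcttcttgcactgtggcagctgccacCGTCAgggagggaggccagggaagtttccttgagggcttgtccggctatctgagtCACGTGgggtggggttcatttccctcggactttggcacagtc
Pck1: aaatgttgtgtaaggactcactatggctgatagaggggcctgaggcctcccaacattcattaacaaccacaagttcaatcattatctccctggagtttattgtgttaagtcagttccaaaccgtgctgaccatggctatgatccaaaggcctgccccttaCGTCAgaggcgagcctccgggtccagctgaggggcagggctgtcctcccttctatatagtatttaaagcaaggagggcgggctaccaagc
Fbp1 held the box CCAAT on the opposite strand, read here as ATTGG, starting 124 bases before the start, a motif found in 33.8% of the 32851 windows of this length. Fbp2 held the cAMP element core as CGTCA at 97 bases and an E-box at 42 bases. Pck1 held CGTCA at 90 bases. The cAMP element core was found in 17.8% of all windows and the E-box in 6.02%. None of the 6 genes had a FoxO or TATA match in this window, against 3.17% and 12.4% of all windows. So Fbp1 and Fbp2 shared none of these 5 motifs in the 250 bases, and a match or its absence says nothing of what binds there.

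Fbp1 was much higher in DKO than in WT islets at both times. At 5 weeks the log2 signal of Fbp1 was 4.53, 4.50, 4.82 and 4.17 in the WT arrays and 7.04 and 6.98 in the DKO arrays. At 7 months it was 3.99, 3.36, 3.28 and 3.80 in WT and 7.75, 7.58, 7.50 and 7.34 in DKO. No DKO array came near a WT array at either time, and the gap between the lowest DKO and the highest WT array was wider than the range within any group. The mean was 4.50 ± 0.27 (SD, n = 4) in WT and 7.01 ± 0.04 (SD, n = 2) in DKO at 5 weeks, a log2 difference of 2.51 ± 0.20 (SE), or 5.69-fold. At 7 months the means were 3.61 ± 0.34 and 7.54 ± 0.17 (SD, n = 4 each), a log2 difference of 3.94 ± 0.16, or 15.3-fold. In islet RNA as a whole, more of the gene's RNA per cell and more cells that make it cannot be told apart.

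Fbp1 stood near the middle of the probe sets of the WT arrays and well above it in DKO. Its group mean stood at percentile 46.2 of all probe sets in WT at 7 months and at percentile 86.3 in DKO. The array medians ran from 3.89 to 3.98, so 2 of the 4 WT arrays at 7 months lay well under the median of their array and the others close to it. No detection limit was set here, so how much of a signal at that height is background is not known. The fold can therefore not be taken as an exact ratio of RNA.

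**Figure D1:**
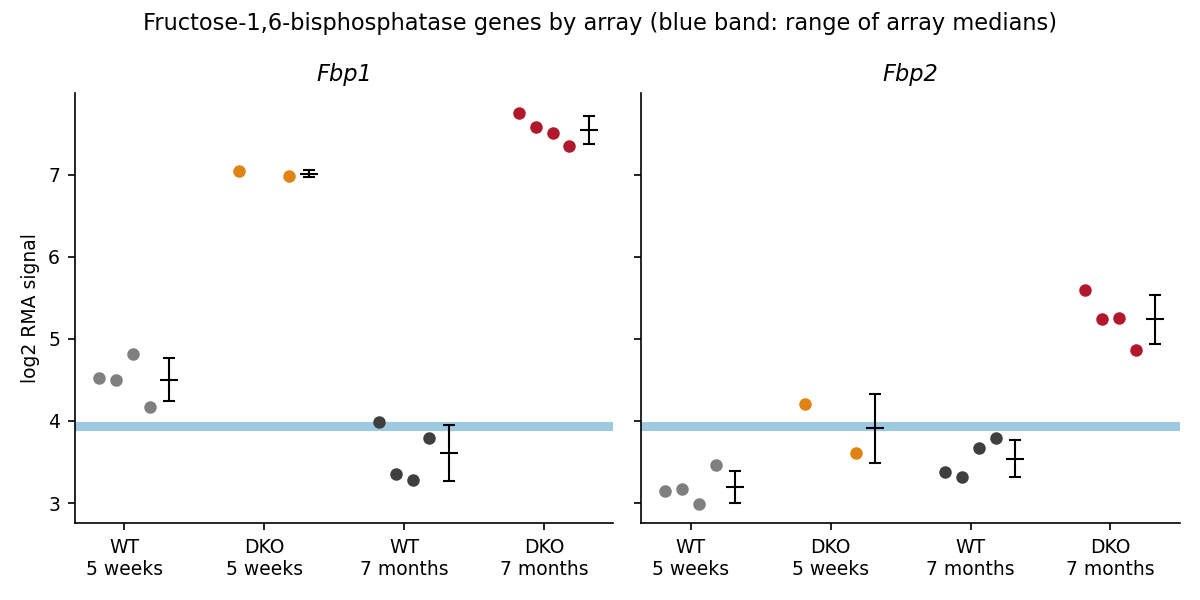
Log2 RMA signal of Fbp1 and Fbp2 on each of the 14 arrays (y axis) by group (x axis). Points are arrays, the bars beside them the mean ± SD, and the blue band the range of the array medians, 3.89 to 3.98. All DKO points of Fbp1 lie near or above 7, and those of Fbp2 at 7 months lie above every other array.

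Over time Fbp1 went in opposite directions in the genotypes. The arrays compared here also entered the genotype difference by which Fbp1 was chosen, so these values too are given with no test. In WT islets the log2 difference between 7 months and 5 weeks was -0.90 ± 0.16 (SE), which is 0.537 of the earlier level. Every WT array at 7 months was lower than every WT array at 5 weeks, as in 3.66% of all genes. In DKO islets the mean of Fbp1 was 0.53 ± 0.20 higher at 7 months, with no overlap of the groups, as in 15.7% of all genes. The genotype difference was larger at 7 months than at 5 weeks by 1.43 ± 0.26. From lowest to highest, the groups were WT at 7 months, WT at 5 weeks, DKO at 5 weeks and DKO at 7 months, and no neighbours in that order overlapped. None of the other 5 genes passed the threshold of 0.05 over time in WT, against 2.37% of all genes.

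Fbp2, the muscle form of the enzyme, was higher in DKO islets at 7 months. Its log2 signal there was 3.37, 3.32, 3.67 and 3.79 in WT and 5.59, 5.25, 5.25 and 4.86 in DKO. At 5 weeks it was 3.14, 3.18, 2.99 and 3.46 in WT and 4.21 and 3.61 in DKO. The DKO arrays lay above all WT arrays at both times, but at 5 weeks the nearest arrays were close together. At 7 months the difference was 1.70 ± 0.17 (SE), or 3.24-fold (95% interval 1.34 to 2.06, limma adjusted p = 3.34e-05, exact permutation p = 0.0286). Of the 5 genes tested, all but Fbp1, Fbp2 was the 1 that passed, against 4.71% of all genes in either direction. It was also the 1 of those 5 whose groups did not overlap, against 10.6% of all genes. At 5 weeks the difference of 0.72 ± 0.21 did not pass (95% interval 0.28 to 1.16, adjusted p = 0.132, exact permutation p = 0.0667). None of the 5 passed then, against 0.994% of all genes, and 21.6% of all genes had groups that did not overlap. An exact permutation p cannot fall below 0.0667 with 2 against 4 arrays, or below 0.0286 with 4 against 4. Fbp2 stood at these floors.

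Fbp2 rose in DKO islets from 5 weeks to 7 months by 1.33 ± 0.21 on the log2 scale, or 2.51-fold (limma adjusted p = 0.0014, exact permutation p = 0.0667). It was the 1 of the 5 genes tested that passed in that comparison, against 7.57% of all genes. In WT islets it was 0.35 ± 0.17 higher at 7 months and did not pass (adjusted p = 0.36). The interaction of Fbp2 was 0.98 ± 0.27 and did not pass (limma adjusted p = 0.189). None of the 5 genes tested passed in the interaction, against 17 genes or 0.0903% of all. In order of level the groups of Fbp2 were WT at 5 weeks, WT at 7 months, DKO at 5 weeks and DKO at 7 months. The arrays of WT at 7 months and DKO at 5 weeks overlapped. The WT means of 3.19 ± 0.20 and 3.54 ± 0.23 (SD, n = 4) lay below the array medians, so the fold of Fbp2 is not an exact ratio either.

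The genes Fbp1 and Fbp2 encode forms of the same enzyme, and how alike their transcripts are was not examined here. Over time Fbp2 gained 1.33 in DKO against 0.53 for Fbp1, and in WT Fbp1 was at -0.90 against 0.35 for Fbp2. The WT signals of both genes lay near or under the array medians. Whether either probe set also takes up RNA of the other was not tested, since probe sequences were not used here.

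G6pc2, the islet form of the glucose-6-phosphatase catalytic subunit, was among the brightest probe sets of every array, with group means from 12.22 to 12.43. At 5 weeks its log2 signal was 12.43, 12.22, 12.31 and 12.32 in WT and 12.16 and 12.28 in DKO. At 7 months it was 12.43, 12.45, 12.43 and 12.40 in WT and 12.35, 12.30, 12.53 and 12.52 in DKO. The genotypes overlapped at both times. The genotype difference was -0.10 ± 0.10 at 5 weeks (95% interval -0.30 to 0.11, limma adjusted p = 0.777), and its interval at 7 months ran from -0.17 to 0.17 (adjusted p = 0.997). The brightest probe set of any array reached 13.5, so G6pc2 lies near the top of the range, where array signals tend to flatten. In DKO islets G6pc2 was 0.20 ± 0.10 higher at 7 months than at 5 weeks and did not pass (adjusted p = 0.245, exact permutation p = 0.133). The groups did not overlap in that comparison, as in 15.7% of all genes in that direction.

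Pyruvate carboxylase, Pcx, had a like signal in 3 of the groups and spread out in the fourth. At 5 weeks its log2 signal was 7.48, 7.43, 7.61 and 7.69 in WT and 7.60 and 7.54 in DKO. At 7 months it was 7.56, 7.51, 7.71 and 7.60 in WT and 7.32, 7.76, 7.17 and 6.75 in DKO. The DKO arrays at 7 months other than replicate 2 lay below all WT arrays of that time, and replicate 2 lay above all of them. The difference was 0.01 ± 0.19 at 5 weeks (95% interval -0.39 to 0.42, limma adjusted p = 0.988). At 7 months it was -0.34 ± 0.15 (95% interval -0.67 to -0.01) and did not pass (adjusted p = 0.249, exact permutation p = 0.171). Without replicate 2 of DKO at 7 months it was -0.51 and passed (adjusted p = 0.0174), and the change over time in DKO was -0.49 in place of -0.32 and passed as well (adjusted p = 0.0446 in place of 0.353).

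Pck1, the cytosolic carboxykinase that liver and kidney use, was dim in islets. Its log2 signal ran from 2.36 to 2.89 in WT and from 2.24 to 2.50 in DKO at 5 weeks, and from 2.53 to 2.95 and from 2.36 to 2.83 at 7 months. All 14 values lay under the array medians and the genotypes overlapped at both times. The difference was -0.23 ± 0.17 at 5 weeks (95% interval -0.60 to 0.13, limma adjusted p = 0.664) and -0.16 ± 0.14 at 7 months (interval -0.46 to 0.14, adjusted p = 0.611). No detection limit was set here, so with signals this low a difference in the RNA of Pck1 may have gone unseen.

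Pck2, the mitochondrial carboxykinase, was well above the array medians in all groups, with means from 7.47 to 7.67. At 5 weeks its log2 signal was 7.67, 7.57, 7.63 and 7.47 in WT and 7.25 and 7.70 in DKO. At 7 months it was 7.45, 7.65, 7.54 and 7.65 in WT and 7.94, 7.96, 7.40 and 7.36 in DKO. The DKO arrays straddled the WT arrays at both times, and at 7 months they fell into a high and a low pair. The difference was -0.11 ± 0.17 at 5 weeks (95% interval -0.48 to 0.26, limma adjusted p = 0.871) and 0.09 ± 0.14 at 7 months (interval -0.21 to 0.39, adjusted p = 0.789).

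**Figure D2:**
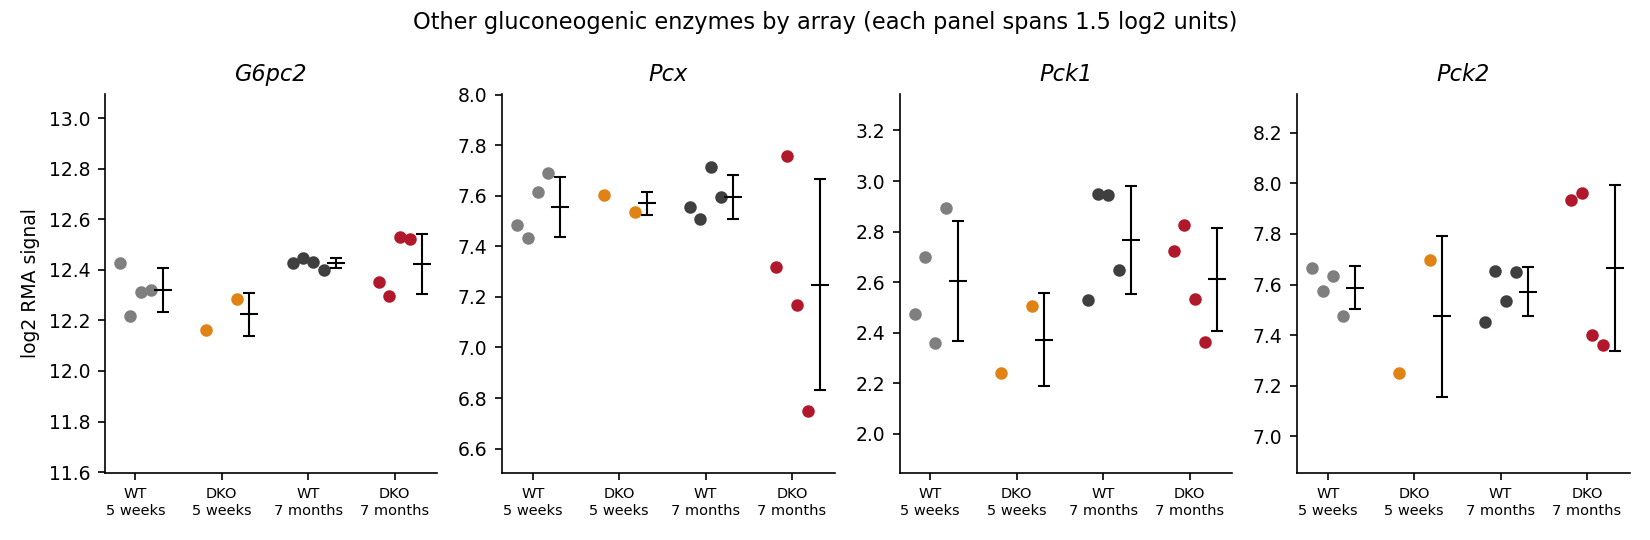
Log2 RMA signal of G6pc2, Pcx, Pck1 and Pck2 on each array (y axis, 1.5 units in every panel) by group (x axis). Points are arrays and bars the mean ± SD. The genotypes overlap for all 4 genes at both times, and Pcx of DKO at 7 months has the widest spread, from 6.75 to 7.76.

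**Figure D3:**
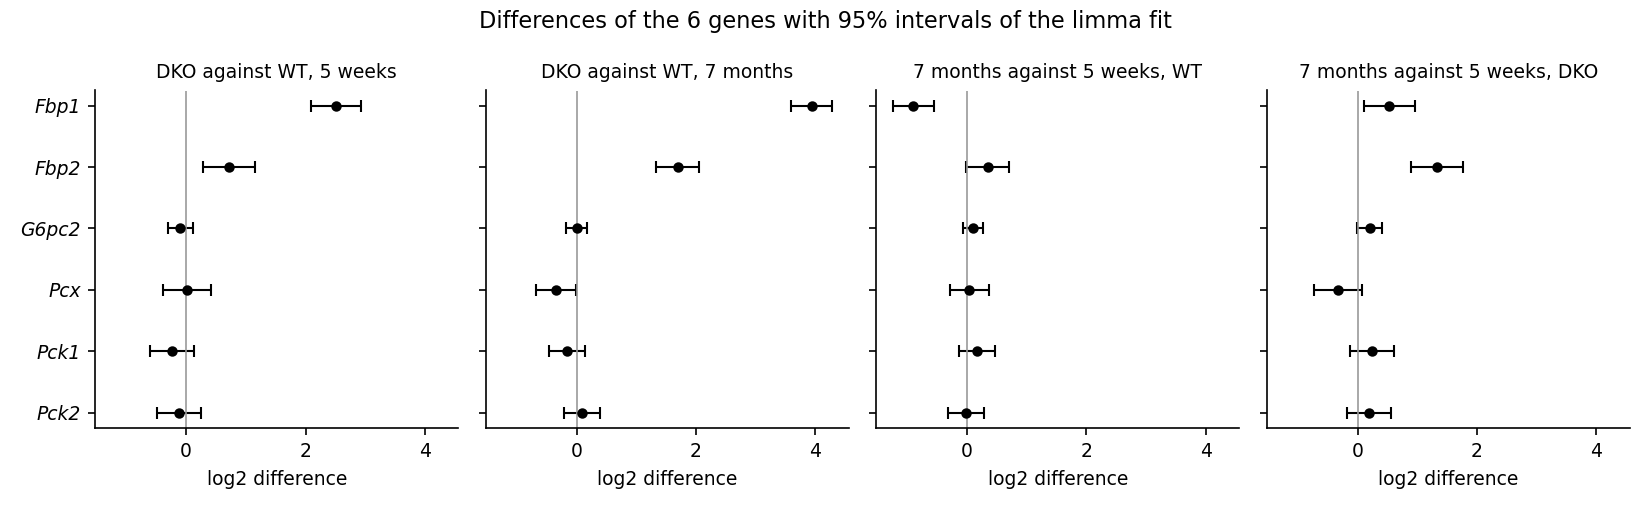
Log2 differences of the 6 genes (points) in 4 comparisons (panels) with 95% intervals of the limma fit. The intervals of Fbp1 describe spread and are no test, because Fbp1 was chosen by its genotype difference on these arrays. In the genotype comparisons Fbp1 stands at 2.51 and 3.94 and Fbp2 at 0.72 and 1.70, while the other 4 genes lie between -0.34 and 0.09.

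Few other genes of the pathway passed in the genotype comparisons. Of 81 measured genes in 6 lists around the pathway, which name 92, 1 was lower in DKO and none higher at 5 weeks (1.23% against 0.994% of all genes). At 7 months 1 was higher and 4 were lower (6.17% against 4.71%). Their median log2 difference was -0.06 and -0.01, beside 0.01 over all genes at either time. None of the 9 other genes of gluconeogenic steps passed at either time, among them G6pc, the liver form of glucose-6-phosphatase, whose mean was 2.15 in WT and 2.01 in DKO at 7 months, and Slc25a10, the mitochondrial dicarboxylate carrier, at 0.16 ± 0.08 (limma adjusted p = 0.306). None of the 11 measured genes of the reversible glycolytic steps passed, the nearest at 7 months being Aldoa, which makes and splits fructose-1,6-bisphosphate, at -0.28 ± 0.08 (adjusted p = 0.0501).

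Among all genes 4.71% passed at 7 months and 0.994% at 5 weeks. Among the 13 measured genes of the opposing glycolytic enzymes, 1 was lower in DKO at 7 months and none at 5 weeks. It was Pfkp, a phosphofructokinase subunit that drives the step Fbp1 opposes, with means of 6.73 in WT and 6.30 in DKO, a difference of -0.43 ± 0.09 (limma adjusted p = 0.00996). Of the other phosphofructokinase subunits Pfkl was at -0.08 ± 0.11 (adjusted p = 0.767) and Pfkm at 0.16 ± 0.08 (adjusted p = 0.331). Pfkfb3, which makes the fructose-2,6-bisphosphate that inhibits fructose-1,6-bisphosphatase, was at 0.41 ± 0.18 (adjusted p = 0.235).

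In these comparisons 0.994% of all genes passed at 5 weeks and 4.71% at 7 months. Of 7 measured genes for the entry of glycerol and fructose, Gpd2 was lower in DKO at both times. This mitochondrial glycerol-3-phosphate dehydrogenase was at 8.88 in WT and 8.20 in DKO at 5 weeks, -0.68 ± 0.13 (limma adjusted p = 0.021), and at 8.77 and 7.79 at 7 months, -0.98 ± 0.11 (adjusted p = 8.67e-05). The call at 5 weeks was lost without replicate 1 or 2 of DKO (adjusted p = 0.112 and 0.12) or replicate 2 or 3 of WT (adjusted p = 0.0542 and 0.0543), with the acinar score in the model (0.0615) and with the replicate block (0.0703). Of 18 measured genes of pyruvate handling, Pdk4, a kinase that shuts pyruvate dehydrogenase, was lower in DKO at 7 months, at 3.78 against 5.24, a difference of -1.46 ± 0.12 (adjusted p = 5e-06). Me1, a cytosolic malic enzyme, was higher by 0.33 ± 0.08 (adjusted p = 0.0239). It did not pass without replicate 1 or 4 of WT, or replicate 1, 3 or 4 of DKO, at 7 months (adjusted p from 0.0519 to 0.076), with the acinar score (0.0816) or with only the arrays compared (0.0613).

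Of 23 measured regulators of gluconeogenic genes, 1 passed at 7 months, where 4.71% of all genes passed. None passed at 5 weeks, where 0.994% of all genes did. Ppargc1a, the coactivator PGC-1 alpha that raises gluconeogenic genes in the liver, was lower in DKO at 7 months, at 3.75 against 6.70 in WT, a difference of -2.95 ± 0.25 (limma adjusted p = 6.87e-06). Fbp1 was thus higher on the same arrays on which Ppargc1a was lower. Foxo1, a transcription factor of the same programme, was at -0.22 ± 0.09 (adjusted p = 0.21). Crtc2, a coactivator of cAMP-driven transcription, was at -0.37 ± 0.10 (adjusted p = 0.057), and the glucagon receptor Gcgr at 0.45 ± 0.13 (adjusted p = 0.0682).

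**Figure D4:**
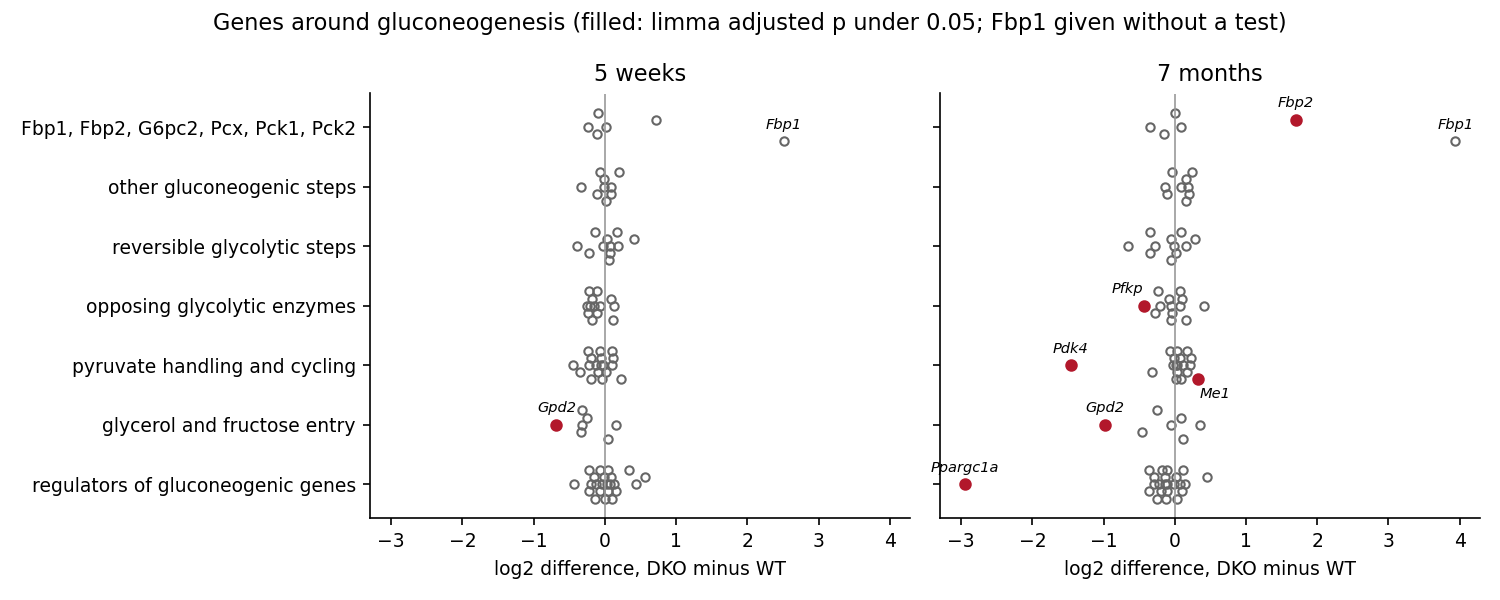
Log2 difference DKO minus WT (x axis) for each measured gene of 7 gene lists (rows) at 5 weeks and 7 months. Each circle is a gene, filled where its limma adjusted p is under 0.05, and Fbp1 is drawn open because it was not tested. Fbp1 lies at 3.94 at 7 months, and 5 filled genes outside the top row lie between -2.95 and 0.33.

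The same lists were compared over time within each genotype. In WT 3 of the 81 genes rose and 1 fell (4.94% against 2.37% of all genes). Pdk4 fell by 1.63 ± 0.12 (limma adjusted p = 7.37e-06), Me3 rose by 0.89 ± 0.19, the aspartate aminotransferase Got1 by 0.37 ± 0.08 (adjusted p = 0.0209 each) and the enolase Eno3 by 0.45 ± 0.11 (adjusted p = 0.0442). Got1 did not pass without replicate 2 or 4 of WT at 5 weeks or replicate 1 at 7 months (adjusted p up to 0.0791), nor Me3 without those or replicate 3 at 7 months (up to 0.0706) or with the acinar score (0.0545). Eno3 passed in 10 of 24 refits, counting each array left out and each other setting, and not with quantile normalization repeated (0.0891) or each array centred on its median (0.063). In DKO 10 rose and 3 fell (16.0% against 7.57%). Pdk4 fell by 2.90 ± 0.15 (adjusted p = 1.23e-07) and Ppargc1a by 2.05 ± 0.31 (adjusted p = 0.00107), while its fellow kinases Pdk1 and Pdk3 rose by 0.99 ± 0.14 and 0.60 ± 0.10 (adjusted p = 0.000654 and 0.003). Pfkm, a phosphofructokinase subunit, rose by 0.54 ± 0.10 (adjusted p = 0.00403) and Gcgr by 0.83 ± 0.16 (adjusted p = 0.00594), but Pfkm was lost without replicate 1 of DKO at 5 weeks (adjusted p = 0.0703) and Gcgr without replicate 2 (adjusted p = 0.0878). Pdp1, Me2, Me3, Idh1, Gpd1 and Slc2a5 rose by 0.40 to 0.80 (adjusted p from 0.0189 to 0.0455) and Crtc2 fell by 0.57 (adjusted p = 0.0132). Pdk3, Pfkm and Gcgr did not pass with only the arrays compared (adjusted p = 0.0578, 0.0817 and 0.0736), nor did these 7. All 7 were lost without replicate 1 of DKO at 5 weeks (adjusted p from 0.0984 to 0.44), and all but Gpd1 and Crtc2 without other arrays or with the acinar score too. Of 24 refits Pdp1 passed in 9, Me2 and Me3 in 10, Idh1 in 11, Slc2a5 in 19, Crtc2 in 21 and Gpd1 in 22. Of the 81 genes, Pdk4 and Ppargc1a passed in the interaction (2.47% against 0.0903% of all genes).

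The tissue label was borne out by the arrays: Ins2, Iapp, Gcg, Sst and Ppy stood between 11.4 and 13.0 in all group means. Tlr2 was lower in DKO, at 4.80 against 6.45 at 5 weeks and 5.31 against 6.37 at 7 months (limma adjusted p = 9.71e-06 and 1.61e-05). Tlr4 was dim in all groups, with means from 2.86 to 3.30, and was not lower in DKO, and whether its probes lie in the deleted part was not tested. Nnt, which is partly deleted in the substrain C57BL/6J and lies on chromosome 13 as Fbp1 and Fbp2 do, was at 8.53 in DKO against 7.00 in WT at 5 weeks and at 8.92 against 7.31 at 7 months. Whether a difference in substrain had a part in the values of Fbp1 and Fbp2 was not tested.

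Fbp1 is a gene of liver, so markers of hepatocytes were read beside it. Of 9 measured hepatocyte markers none passed as higher in DKO at either time, and 1, Apoa2, was lower at both. Of all genes 0.994% passed at 5 weeks and 4.71% at 7 months. At 5 weeks Apoa2 did not pass without replicate 2 of WT (limma adjusted p = 0.0571) or with the acinar score (0.072). Nor did it pass with the replicate block (0.0539) or only the arrays compared (0.0764). Without replicate 1 of DKO, which left a lone DKO array at that time, it shrank from -1.02 to -0.71, and no call is given for that fit. The mean over the list ran from 3.53 to 3.79 in WT and from 3.52 to 3.58 in DKO at 5 weeks, and from 3.52 to 3.78 and from 3.37 to 3.46 at 7 months. Albumin, Alb, was at 3.17 to 3.52 in the group means, below the array medians. Of 15 measured acinar markers none passed, but their median difference was 1.12 at 5 weeks and 1.02 at 7 months. The mean over the acinar list ran from 6.18 to 8.38 in WT and from 8.63 to 9.02 in DKO at 5 weeks, and from 5.27 to 8.53 and from 7.68 to 8.11 at 7 months. With the acinar score in the model Fbp1 differed by 2.63 at 5 weeks and 4.05 at 7 months, beside 2.51 and 3.94 without it. At 5 weeks the acinar means of WT and DKO did not overlap, so score and genotype cannot be fully separated there. The part of hepatocytes or acinar cells in the values of Fbp1 was not tested.

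Other cell types also moved at 7 months. None of 9 beta cell markers passed, and the mean over that list ran from 10.57 to 10.64 in WT and from 10.34 to 10.63 in DKO. In DKO 3 of 4 alpha cell markers, 2 of 5 delta cell markers and 3 of 3 of the PP and epsilon cell list were lower, while 3 of 9 macrophage markers and 4 of 9 endothelial and stellate cell markers were higher, where 4.71% of all genes passed in either direction. The list means ran from 8.48 to 8.62 in WT and from 7.86 to 8.04 in DKO for alpha, from 6.50 to 6.64 and from 5.93 to 6.06 for delta, and from 9.46 to 10.32 and from 8.39 to 9.10 for PP and epsilon cells. They ran from 5.21 to 5.33 in WT and from 5.37 to 6.09 in DKO for macrophages, and from 6.23 to 6.42 and from 6.83 to 7.33 for endothelial and stellate cells. Of 6 duct markers 1, Tspan8, was lower. At 5 weeks none of the islet or macrophage markers passed, where 0.994% of all genes did. Among endothelial and stellate markers 1, Acta2, was lower then, at -0.98 ± 0.17. Without replicate 1 of DKO, which left a lone DKO array at that time, Acta2 shrank to -0.67, and no call is given for that fit. Acta2 passed in the main fit but not with only the arrays compared (limma adjusted p = 0.06). The part of any of these cell types in the values of Fbp1 and Fbp2 was not tested.

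Fbp2 is the nearest measured gene to Fbp1 on chromosome 13 on its downstream side, by the RefSeq order of GRCm38.p6. At 7 months the other 9 of the 10 genes around Fbp1 did not pass, with differences between -0.57 and 0.10, against 1.70 for Fbp2. Aopep, the aminopeptidase gene on the upstream side, was at -0.06 ± 0.15 at 5 weeks and -0.12 ± 0.12 at 7 months (limma adjusted p = 0.935 and 0.653). At 5 weeks Mir713 was at -0.57 ± 0.12 (adjusted p = 0.0304), Fancc was at -0.71 ± 0.15 (adjusted p = 0.0424) and Mir24-1 at 0.58 ± 0.11 (adjusted p = 0.0174), all 3 with group means of 4 or less, where 0.994% of all genes passed. None of the 3 passed without replicate 1 of DKO at 5 weeks (adjusted p = 0.0759, 0.457 and 0.283), with the replicate block or with only the arrays compared. Of 23 refits Mir713 passed in 14, Fancc in 9 and Mir24-1 in 20, and Mir713 was at -0.34 with its probe sets averaged (adjusted p = 0.503).

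**Figure D5:**
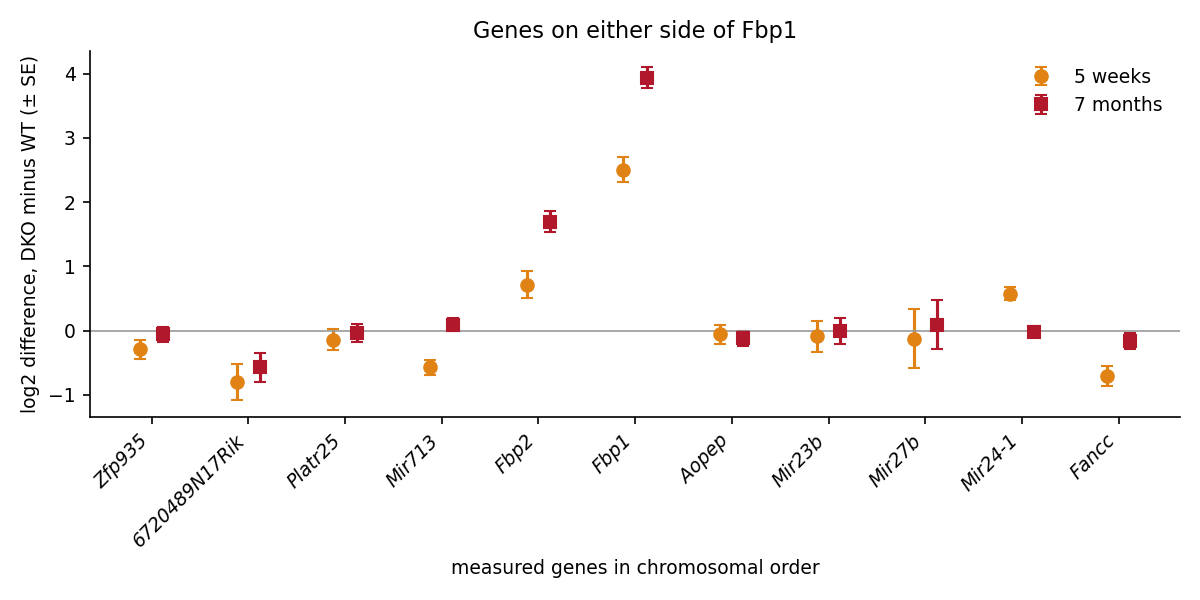
Log2 difference DKO minus WT ± SE (y axis) for Fbp1 and the 5 nearest measured genes on each side, in chromosomal order (x axis), at 5 weeks (circles) and 7 months (squares). Fbp1 and its neighbour Fbp2 stand at 3.94 and 1.70 at 7 months, and the other 9 genes between -0.57 and 0.10.

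The genes whose signal ran most like that of Fbp1 were found by the root mean square difference over the 14 arrays, each gene centred on its own mean. Fbp1 itself varied by 1.70 around its mean. Trnp1 came nearest, with a difference of 0.64, and had means of 4.23 and 6.59 in WT and DKO at 5 weeks and 4.29 and 6.72 at 7 months. Klhl33 (0.89), Reg2 (0.92), Lypd10 (0.94) and Vnn1 (0.95) followed. None of them is an enzyme of the lists above. Its mirror image was nearest to Ust, a sulfotransferase gene, at 0.57, with means of 5.42 and 3.88 at 5 weeks and 5.95 and 2.97 at 7 months. Dock10 (0.75), Npas4 (0.78), Ndufs5 (0.86) and Dpp10 (0.88) came next. The likeness is a description over arrays that share the genotype and time groups.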

How the data were processed

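RNA of snap-frozen islets, 100 ng per sample, was labelled with biotin and hybridised to a whole-transcript array. The authors deposited log2 values, which come from RMA per the submitters' processing notes, a method that corrects background, normalizes and sums probes to probe sets. The sources used here do not give its version. Of 35556 probe sets 21218 carry 1 gene symbol, 1881 several and 12457 none, and the first kind was used. Entrez identifiers gave current symbols to 18790 genes, while the platform's symbol stayed for 30. The brightest probe set was taken for the 1386 genes with several, which gave 18820 genes. The number of arrays limits the precision.

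All 14 arrays and all genes entered 1 linear model of group means, fitted with limma 3.58.1 (lmFit and eBayes) in R 4.3.3, with Benjamini-Hochberg adjustment within each of 5 comparisons and a threshold of 0.05. The labels word each sample as coming from a mouse of its own, and p-values measure the spread between these samples. Exact permutation tests used the difference of means in Python 3.11.15 with scipy 1.17.1. Tested on simulated data over 18820 genes, the fit recovered 48% of 50 genes changed 1.5-fold and 88% of 50 changed 2-fold at 5 weeks, and 66% and 90% at 7 months.

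The genes and the lists were chosen with earlier results of these data known. Named are the 6 genes, up to 4 genes of smallest p per list and comparison with Ppargc1a, Foxo1 and Pfkp, the targeted genes, defining cell type markers and Nnt, the 5 nearest measured genes on each side of Fbp1, and the 5 genes most like and most opposite to it. Pfkl, G6pc and Pfkm at 7 months, and Pdp1, Me2 and Me3 over time in DKO, lie outside this rule and were named after their values were seen. Of 178 genes in 16 lists 156 were measured. Alternatives were 10 other settings and each array left out. In the description labels a letter goes with each group, so position and group cannot be told apart.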

Additional observations from a re-analysis of the deposited data

Results flagged for a closer look

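The change of Fbp1 with time differed between the genotypes. Every WT array at 7 months was lower than every WT array at 5 weeks, as in 3.66% of all genes. Every DKO array at 7 months was higher than the 2 at 5 weeks, as in 15.7% of all genes. The changes differed by 1.43 on the log2 scale. This difference was not tested, because Fbp1 was chosen for its genotype difference. The genotype by time interaction passed for Pdk4, at -1.27 (limma adjusted p = 0.0177), and for Ppargc1a, at -2.52 (adjusted p = 0.0197), so that for both the difference DKO minus WT was lower at 7 months than at 5 weeks. Pdk4 did not pass without replicate 3 of WT or replicate 1 of DKO at 5 weeks (adjusted p = 0.0536 and 0.132), or with the replicate block (0.0656). Ppargc1a did not pass without replicate 1, 2 or 3 of WT or replicate 1 of DKO at 5 weeks, or replicate 2 of WT at 7 months (adjusted p from 0.0526 to 0.201), with the replicate block (0.0834), or with its probe sets averaged (-1.78, adjusted p = 0.0576). None of the 6 genes had an array far from the other 3 in the groups of 4, in 18 groups looked at by Dixon's criterion.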

How the results depend on the processing

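Fbp1 and Fbp2 kept their direction in all 119 refits each, and Fbp2, which was tested, its side of the threshold. With 1 array left out, Fbp1 ranged from 2.39 to 2.61 at 5 weeks, 3.83 to 4.07 at 7 months and -1.03 to -0.79 over time in WT, and Fbp2 from 1.58 to 1.82 at 7 months and 1.03 to 1.62 over time in DKO (adjusted p up to 0.0249). Fbp2 at 5 weeks, which did not pass, ranged from 0.42 to 1.01, and the lone DKO array left then was taken to spread as much as the rest.

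The reversals below concern differences that did not pass in any form. G6pc2 at 7 months was 0.0854 with quantile normalization repeated, 0.0488 with each array centred on its median, 0.0231 with array weights, and ran from -0.0365 to 0.0415 with 1 array left out. With 1 array left out the interaction of Pck1 ran from -0.0538 to 0.2084. Pck2 then ran from -0.3378 to 0.1109 at 5 weeks, -0.0059 to 0.1939 at 7 months, -0.0526 to 0.0255 over time in WT, -0.033 to 0.4157 over time in DKO and -0.0179 to 0.4308 in the interaction. Pcx at 5 weeks was -0.0153 with the acinar score and ran from -0.0262 to 0.0605 with 1 array left out. Over time in WT it was -0.0052 with quantile normalization and ran from -0.0026 to 0.0841 with 1 array left out. Pcx without replicate 2 of DKO at 7 months passed, at -0.51 at 7 months and -0.49 over time in DKO. The causes were not tested.

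The counts of genes past the threshold moved more. At 5 weeks 187 became 282 with a trended robust prior, 100 with the acinar score, 120 with only the arrays compared, and 44 to 236 with 1 array left out (120 and 104 without replicates 1 and 2 of WT, 44 without replicate 1 of DKO). At 7 months 887 became 488 with only the arrays compared and 528 to 1681 with 1 left out (528 each without replicates 1 and 2 of WT, 1681 and 531 without replicates 2 and 3 of DKO). Over time in WT 446 became 297 with the acinar score, 786 with array weights and 221 to 527 with 1 left out (276 and 244 without replicates 1 and 2 at 5 weeks, 221, 256 and 262 without replicates 1, 3 and 4 at 7 months). Over time in DKO 1424 became 911 with the acinar score, 347 with only the arrays compared and 378 to 2051 with 1 left out (378 without replicate 1 at 5 weeks, 938 without replicate 3 at 7 months). In the interaction 17 became 46 with the trended prior, 35 without dim genes, 28 with array weights and 2 to 185 with 1 left out (8 and 10 without WT replicate 3 at 5 weeks and 2 at 7 months, 2 and 36 without DKO replicates 1 and 2 at 5 weeks, 27 and 185 without DKO replicates 1 and 2 at 7 months). Fewer arrays in a fit leave fewer degrees of freedom, yet some counts rose. Without replicate 2 of DKO at 7 months they rose to 1681 at 7 months and 185 in the interaction. Why the counts moved was not tested.

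Same-numbered arrays did not deviate together (18 pairs, r from -0.163 to 0.158), so no sign of pairing by number was seen. Deviations from a group mean cancel within groups of 2 or 4 arrays, so this check cannot exclude a pairing. With the replicate block 121 genes passed at 5 weeks, 864 over time in DKO and 10 in the interaction, and Pcx at 5 weeks was -0.0287. Pck1 has no value without dim genes, and the interaction no fit with only the arrays compared. Signals near or under the array medians, as of Fbp1 and Fbp2 in WT and of Pck1 throughout, limit what a fold can show.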
